A study of Mus musculus with 60 samples.

Results

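The transcriptional response of the mouse hippocampus 4 h after a single injection of memantine was compared with that 4 h after saline. The comparison comprised 6 arrays of the 60 in the series, 3 of memantine and 3 of saline, taken by group and time from the sample titles, and all 45281 probes were tested. Memantine, a dimethyl-substituted adamantane amine that blocks the open channel of the NMDA-type glutamate receptor, was given intraperitoneally at 15 mg/kg. Every group of the series consisted of adult male C57BL/6J mice, 8 to 10 weeks old, with no transgene, and each array held hippocampal RNA pooled from 2 mice. The saline mice received the vehicle only, the naive mice used below as a further control received no injection, and the other drug groups received ketamine at 20 mg/kg or phencyclidine (PCP) at 5 mg/kg. The design asks which transcripts respond to the drug and when.

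The hippocampus carries a high density of glucocorticoid and mineralocorticoid receptors. When bound by corticosterone, the stress hormone of rodents, the glucocorticoid receptor enters the nucleus and raises the transcription of genes for fat and glucose handling, growth arrest and anti-inflammatory signaling in neurons, astrocytes and the cells of brain vessels. A second kind of inducible transcript, the immediate early genes, follows neuronal firing within minutes and is typically short-lived.

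The arrays differed in quality. The 5th percentile of intensity was 111 to 180 on the memantine arrays, 107 to 152 on 2 of the saline arrays and 314 on saline replicate 3, whose weak probes thus sat on a higher background. It is 1 of 7 such arrays in the series. Among the others, memantine 8 h replicate 3 (859), PCP 4 h replicate 2 (587) and saline 2 h replicate 3 (482) enter comparisons below. By the chip identifier in the sample descriptions, taken here as the slide, the 6 arrays lay on 6 different slides, and no slide held both groups. Some markers of hippocampal principal neurons were bright. Camk2a, Slc17a7 and C1ql2, the last a marker of dentate granule cells, were at the 99.5th, 98.5th and 98.1th percentile of all probes. Some other markers of these neurons were weaker, with Neurod1 at the 65.1th, Neurod6 at the 47.7th and Calb1 at the 5.1th percentile. In whole tissue of this kind, fewer cells of a type and less RNA per cell cannot be told apart.

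At 4 h, memantine raised transcripts of 5 genes and lowered none. Plin4, Cdkn1a, Sult1a1, Tsc22d3 and Mfsd2a passed an adjusted p of 0.05 with limma, by 6 probes or 0.0133% of the 45281 tested, and their fold changes over saline control lay between 1.80 and 4.10. They are 0.0262% of the 19057 named genes, and all 5 belong to a list of 39 measured glucocorticoid receptor targets. That list was drawn up with earlier results of these data known. The study selected 16 of the 39 for memantine on arrays that include these. The membership is therefore no independent evidence. No probe fell at that threshold (0%). At an unadjusted p under 0.05, 601 probes were higher and 651 lower (1.33% and 1.44%), and 2264 would be counted at that level by chance alone. A fit of the 6 arrays alone called fewer probes. The count was 2 when they were also normalized on their own and 0 when the shared normalization was kept. Such a fit has fewer arrays from which to estimate the spread, and the reason for the lower counts was not tested.

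**Figure D1:**
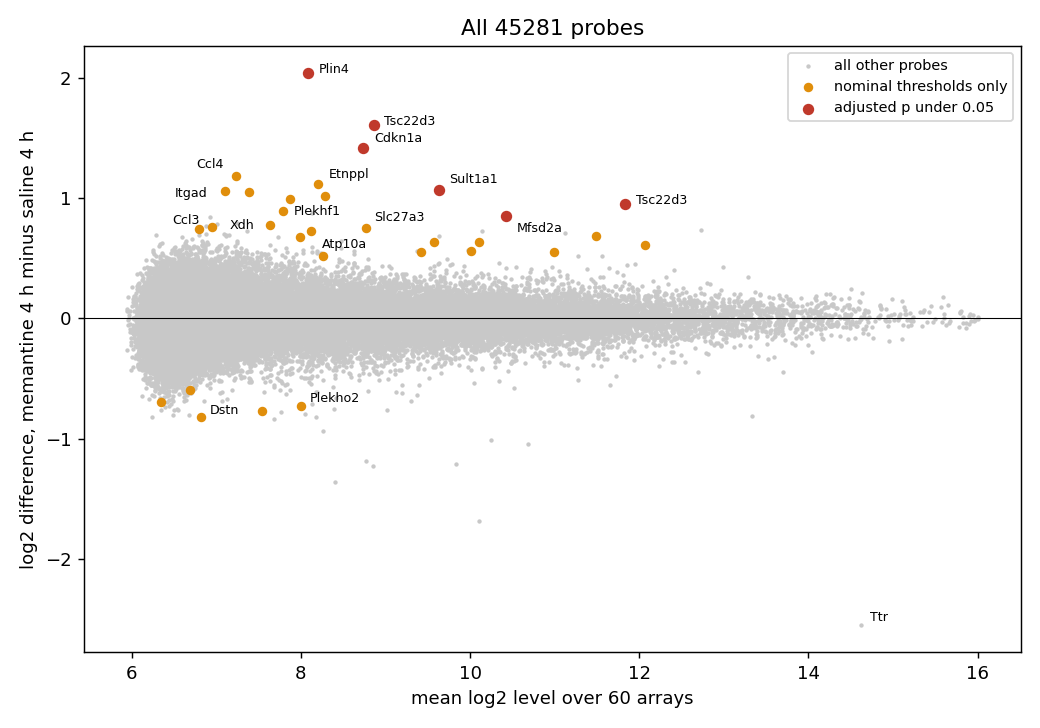
Log2 difference, memantine 4 h minus saline 4 h, of every probe against its mean log2 level over the 60 arrays. Red points are the 6 probes past an adjusted p of 0.05, all above 0, and orange points are the others past p under 0.0005 with a difference over 0.3, of which 5 lie below 0. The grey point near the bottom right is Ttr, a choroid plexus transcript whose arrays overlapped between the groups.

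Plin4 encodes perilipin 4, a coat protein of lipid droplets. Its log2 level was 9.11, 9.43 and 10.04 on the memantine arrays, against 7.74, 7.53 and 7.21 on the saline arrays. The groups were far apart, and the highest memantine array was replicate 3. The difference of 2.04 (SE 0.22) was the largest rise of any probe, a 4.10-fold change (adjusted p = 8.43e-08, limma). It kept its sign under each of 20 other ways of processing or choosing the arrays, between 1.53 and 2.27, and missed the threshold under 1 of them, the fit of the 6 arrays alone (adjusted p = 0.0667).

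Cdkn1a encodes p21, an inhibitor of cyclin-dependent kinases that halts the cell cycle. Its brightest probe read 9.48, 9.32 and 10.06 with memantine and 8.34, 8.22 and 8.04 with saline. Every memantine array stood above every saline array. The difference was 1.42 (SE 0.21, adjusted p = 0.000368), and its 2 weaker probes gave 1.05 and 0.99 without passing (adjusted p = 0.142 and 0.143).

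Sult1a1 encodes a phenol sulfotransferase, which conjugates phenolic drugs and monoamines with sulfate. Memantine arrays read 10.29, 9.99 and 10.50, and saline arrays 9.31, 9.25 and 9.02. The difference of 1.07 (SE 0.16, adjusted p = 0.000468) is a 2.09-fold change, and the groups did not overlap. It lost the call with slide as a fixed block (0.98, adjusted p = 0.0955) and in both fits of the 6 arrays alone.

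Tsc22d3 encodes GILZ, a leucine zipper protein that glucocorticoids induce and that restrains inflammatory transcription factors. Its brightest probe read 12.49, 12.28 and 12.40 with memantine, against 11.54, 11.48 and 11.30 with saline. A second probe read 9.56, 10.03 and 10.14 with memantine, against 8.12, 8.34 and 8.45 with saline. Both probes had the groups apart, whereas the dimmest probe had them overlapping. The differences were 0.95 (SE 0.16, adjusted p = 0.00404) and 1.61 (SE 0.26, adjusted p = 0.00136) for the first pair and 0.28 (SE 0.25) for the dimmest.

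Mfsd2a encodes the carrier by which endothelial cells of the blood-brain barrier take up lysophosphatidylcholine that holds the omega-3 fatty acid DHA. It read 10.86, 10.86 and 11.21 with memantine and 10.23, 10.01 and 10.13 with saline. The memantine arrays again lay above all saline arrays. The difference was 0.85 (SE 0.15, adjusted p = 0.00404), the smallest of the called ones, and it lost the call under 6 of the 20 alternatives, among them without memantine replicate 3 (0.73, adjusted p = 0.236) and without saline replicate 2 (0.80, adjusted p = 0.119).

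Without the saline array of high background, 5 probes were raised and none was lowered. The brightest Tsc22d3 probe was then the one to miss the threshold (0.88, adjusted p = 0.132), while its second probe and the other 4 genes remained past it. It was also lost without memantine replicate 1 (0.90, adjusted p = 0.0986). With slide as a fixed block, 4 probes passed, 1 each of Plin4, Cdkn1a, Tsc22d3 and Etnppl.

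**Figure D2:**
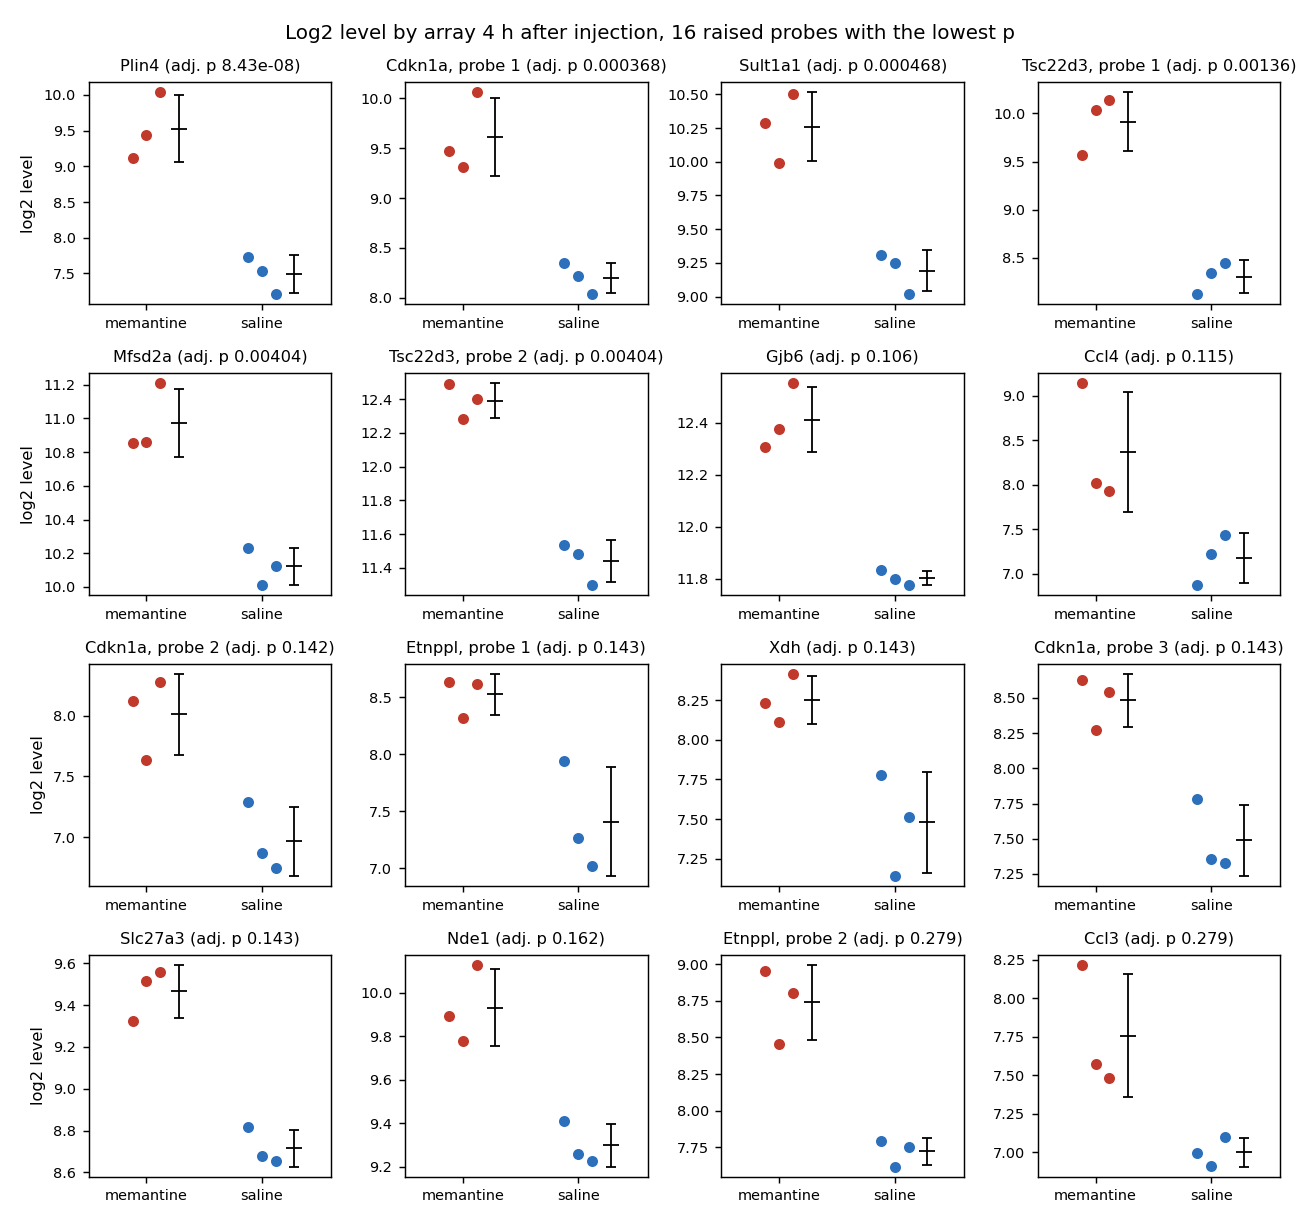
Log2 level on each array for the 16 named probes with the lowest p among those raised, memantine on the left and saline on the right of each panel, with the group mean and SD (n = 3 arrays each) beside the points. In all 16 panels the lowest memantine array lies above the highest saline array, and the first 6 panels passed an adjusted p of 0.05. The probes were chosen on these same arrays, so the separation is no further evidence.

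A looser criterion, p under 0.0005 with a log2 difference above 0.3, borrows its cutoffs from the study, which applied that p to the drug factor of an analysis of variance over drug and time and the difference to any time. Here both apply to the limma contrast at 4 h alone. It took in 27 raised probes of 20 named genes (0.0596% of all probes) and 5 lowered probes (0.011%). The arrays of the 2 groups did not overlap for any of these probes. The probes were chosen by their difference on these same arrays, so the separation is no further evidence. Of all probes, 3.97% had every memantine array above and 4.02% every memantine array below. Memantine replicate 3 was the highest array for 18 of the 27 raised probes and replicate 1 for 8. Of the 20 genes, 8 are in the list of receptor targets, and 16 are among those the study itself selected on arrays that include these, which makes their direction no independent evidence. Further probes were present for 8 of the 20, 14 in all, of which 11 gave a positive difference, 4 of them with p under 0.05. The other 3 raised probes had no gene symbol. None of the genes in the next paragraphs passed after adjustment over all probes in the fit described, but some did under other settings. Gjb6 passed under 6 of 20 alternatives, among them the values normalized by the authors (0.60, adjusted p = 0.0112) and slide as a random block (0.64, adjusted p = 0.0314). Ccl4 passed under 5, with the authors' values among them (0.82, adjusted p = 0.0351), and the dimmer Etnppl probe under 3, with slide as a fixed block (adjusted p = 0.0285) and as a random block (adjusted p = 0.0287) among them.

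Gjb6, which encodes connexin 30 of the astrocyte gap junctions, read 12.31, 12.38 and 12.55 with memantine and 11.83, 11.80 and 11.78 with saline. The groups were apart, and the difference was 0.61 (SE 0.13, adjusted p = 0.106). Etnppl, an ethanolamine-phosphate lyase, gave 1.12 (SE 0.24, adjusted p = 0.143) on one probe and 1.02 (SE 0.24, adjusted p = 0.279) on its brighter one. Its brighter probe read 8.95, 8.46 and 8.81 with memantine and 7.80, 7.62 and 7.75 with saline, again without overlap.

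Pnpla2, the lipase that starts the breakdown of stored triglyceride, read 10.62, 10.33 and 10.86 with memantine, against 10.21, 9.83 and 9.87 with saline. The groups were close, with the lowest memantine array just above the highest saline array, and the difference was 0.63 (SE 0.15, adjusted p = 0.279). Slc27a3, an acyl-CoA synthetase of the fatty acid transport family, read 9.32, 9.52 and 9.56 with memantine and 8.82, 8.68 and 8.65 with saline (0.75, SE 0.17, adjusted p = 0.143). Atp10a, a phospholipid flippase, was higher by 0.72 (SE 0.18, adjusted p = 0.35) and Adipor2, a receptor of adiponectin, by 0.55 (SE 0.14, adjusted p = 0.458).

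Slc2a1, the glucose transporter GLUT1 of brain endothelium and astrocytes, read 11.84, 11.59 and 12.05 with memantine and 11.31, 11.05 and 11.07 with saline. It differed by 0.68 (SE 0.17, adjusted p = 0.458) with the groups apart. Xdh, which oxidizes purines to uric acid, gave 0.77 (SE 0.17, adjusted p = 0.143).

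The chemokines Ccl4 and Ccl3, attractants of monocytes and T cells that microglia can release, were uneven within the memantine group. Ccl4 read 9.14, 8.02 and 7.92 with memantine and 6.87, 7.22 and 7.43 with saline. Ccl3 read 8.22, 7.57 and 7.48 with memantine, against 6.99, 6.91 and 7.10 with saline. In both, memantine replicate 1 stood above its other 2 arrays. The differences were 1.19 (SE 0.25, adjusted p = 0.115) and 0.76 (SE 0.18, adjusted p = 0.279), and a second, dimmer Ccl4 probe gave 0.31 (SE 0.16) with overlapping arrays.

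The remaining genes of the wider group were Nde1, Sh3d21, Fam20a, Plekhf1 and Itgad. Nde1, which links dynein to centrosomes, gave 0.63 (SE 0.14) on the probe that passed and 0.43, 0.47 and 0.24 on its 3 others. Itgad, an integrin subunit of myeloid cells, had 1 probe at 1.06 (SE 0.26) and 4 others at 0.58, -0.05, -0.07 and -0.24, and its brightest probe was among those below 0. Plekhf1, a phosphoinositide-binding protein of endosomes, gave 0.89 (SE 0.24), Sh3d21 0.68 (SE 0.16) and Fam20a, a pseudokinase of the secretory pathway, 0.56 (SE 0.15).

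On the lowered side, 3 of the 5 probes lay below the median signal, against 1 of the 27 raised, and 2 of the 5 had a gene symbol. Dstn, which encodes the actin-severing protein destrin, read 6.58, 6.29 and 6.50 with memantine and 6.996, 7.32 and 7.52 with saline on the probe that passed, a difference of -0.82 (SE 0.21, adjusted p = 0.458). Its brightest probe gave -0.17 (SE 0.13) and overlapped. Plekho2 read 7.84, 7.58 and 7.45 with memantine, against 8.32, 8.61 and 8.11 with saline (-0.73, SE 0.19, adjusted p = 0.525). The count of lowered probes was unstable, at 15 without saline replicate 1 and 1 without memantine replicate 2.

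Promoter sequences of 4 of the receptor targets are shown because 5 targets rose and the receptor binds a known motif. RefSeq windows on GRCm38.p6 run from 250 bases before to 50 bases after an annotated transcription start and were searched on both strands for the glucocorticoid response element, AGAACA followed by 3 bases of any kind and TGTTCT, and for AGAACA alone. Capitals mark the full element in Sgk1 and the AGAACA matches, read on either strand, in Sult1a1 and Tsc22d3. The other annotated windows of Tsc22d3, not printed, hold neither. The Plin4 window holds neither and is printed as that of the gene with the largest change.
Sgk1, chr10:21993640-21993939, + strand: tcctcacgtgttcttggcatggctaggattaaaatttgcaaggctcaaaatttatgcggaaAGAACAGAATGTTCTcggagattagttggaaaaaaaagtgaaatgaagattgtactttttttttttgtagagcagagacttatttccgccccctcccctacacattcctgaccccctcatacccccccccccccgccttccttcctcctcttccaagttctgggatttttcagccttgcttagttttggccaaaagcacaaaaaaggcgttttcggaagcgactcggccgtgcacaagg
Sult1a1, chr7:126676369-126676668, - strand: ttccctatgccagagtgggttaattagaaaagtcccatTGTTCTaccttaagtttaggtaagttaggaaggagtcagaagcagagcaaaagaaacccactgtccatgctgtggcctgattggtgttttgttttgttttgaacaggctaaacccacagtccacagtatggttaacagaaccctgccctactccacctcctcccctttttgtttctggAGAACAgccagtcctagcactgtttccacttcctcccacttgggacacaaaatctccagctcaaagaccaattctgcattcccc
Tsc22d3, chrX:140600473-140600772, - strand: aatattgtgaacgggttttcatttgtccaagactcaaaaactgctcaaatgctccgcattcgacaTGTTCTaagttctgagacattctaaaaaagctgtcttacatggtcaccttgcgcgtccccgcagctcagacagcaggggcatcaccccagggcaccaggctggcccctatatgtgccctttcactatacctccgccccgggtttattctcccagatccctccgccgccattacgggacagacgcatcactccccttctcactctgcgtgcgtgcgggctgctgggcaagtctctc
Plin4, chr17:56109733-56110032, - strand: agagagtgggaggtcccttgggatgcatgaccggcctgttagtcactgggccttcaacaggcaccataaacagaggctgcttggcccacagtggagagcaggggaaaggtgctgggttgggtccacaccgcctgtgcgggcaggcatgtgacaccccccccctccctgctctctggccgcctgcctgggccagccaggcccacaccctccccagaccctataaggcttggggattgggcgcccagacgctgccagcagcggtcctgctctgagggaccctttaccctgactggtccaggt

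The full element was found in 3 of all 32851 windows (0.00913%), and 1 of these is the Sgk1 window, where it begins 189 bases before the start. Sgk1 has 6 annotated windows, and the other 5 lack it. None of the 8 windows of the 5 called genes held it. AGAACA alone, which the full element contains, was present in 19% of all windows, in 2 of the 8 windows of the called genes and in 8 of the 50 windows of the receptor target list. The cAMP response element TGACGTCA (1.79% of all windows), the E-box CACGTG (7.15%) and the FoxO site GTAAACA (3.65%) were absent from all 8 windows of the called genes. These matches describe the letters of the window only.

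Across the 39 measured receptor targets, 5 passed after adjustment over all probes and none fell. At p under 0.05, 20 were higher and none was lower, where 1.25% and 1.5% of the 19057 genes were higher and lower. The median log2 difference of the list was 0.36 and that of all genes -0.01. For 20 of the 39 every memantine array lay above every saline array, against 3.78% of all genes, and for none did every memantine array lie below, against 4.31%. The study selected 16 of the 39 for memantine on arrays that include these, so the count is not independent evidence of direction. Over the alternatives run, the median of the list stayed between 0.30 and 0.39. At the other times after memantine, 8 of the 39 were higher and 1 was lower at 1 h (median 0.19), 19 were higher and none was lower at 2 h (median 0.34, 5 past adjustment), and 5 were higher and none was lower at 8 h (median 0.12). At 2 h 6.53% of all genes were higher and 4.88% lower, at 1 h 1.29% and 1.12%, and at 8 h 3.4% and 3.66%. The 2 h contrast includes an array of high background, saline replicate 3, as does the 8 h contrast, memantine replicate 3. The count and the median were thus close at 2 h and 4 h, and the difference between these times was not tested for the list.

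Among list members outside the called genes, Sgk1, a kinase that glucocorticoids induce and that regulates ion channels, read 12.45, 12.46 and 13.20 with memantine, against 12.03, 11.61 and 12.26 with saline. The memantine arrays were higher throughout, replicate 3 most, and the difference was 0.73 (SE 0.22). Hif3a, a hypoxia-inducible factor subunit that can restrain the pathway, read 8.61, 8.90 and 9.12 with memantine and 8.29, 7.88 and 7.83 with saline (0.88, SE 0.24). The groups were apart on this probe and overlapped on its 2 dimmer ones. Fkbp5, the co-chaperone that lowers the affinity of the receptor for hormone, differed by 0.56 (SE 0.17), Angptl4, an inhibitor of lipoprotein lipase, by 0.60 (SE 0.18) and Errfi1, a feedback inhibitor of the EGF receptor, by 0.51 (SE 0.16). Other members were near or below 0, among them Dusp1 at -0.08, Klf15 at 0.10 and Glul, the glutamine synthetase of astrocytes, at -0.39.

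**Figure D3:**
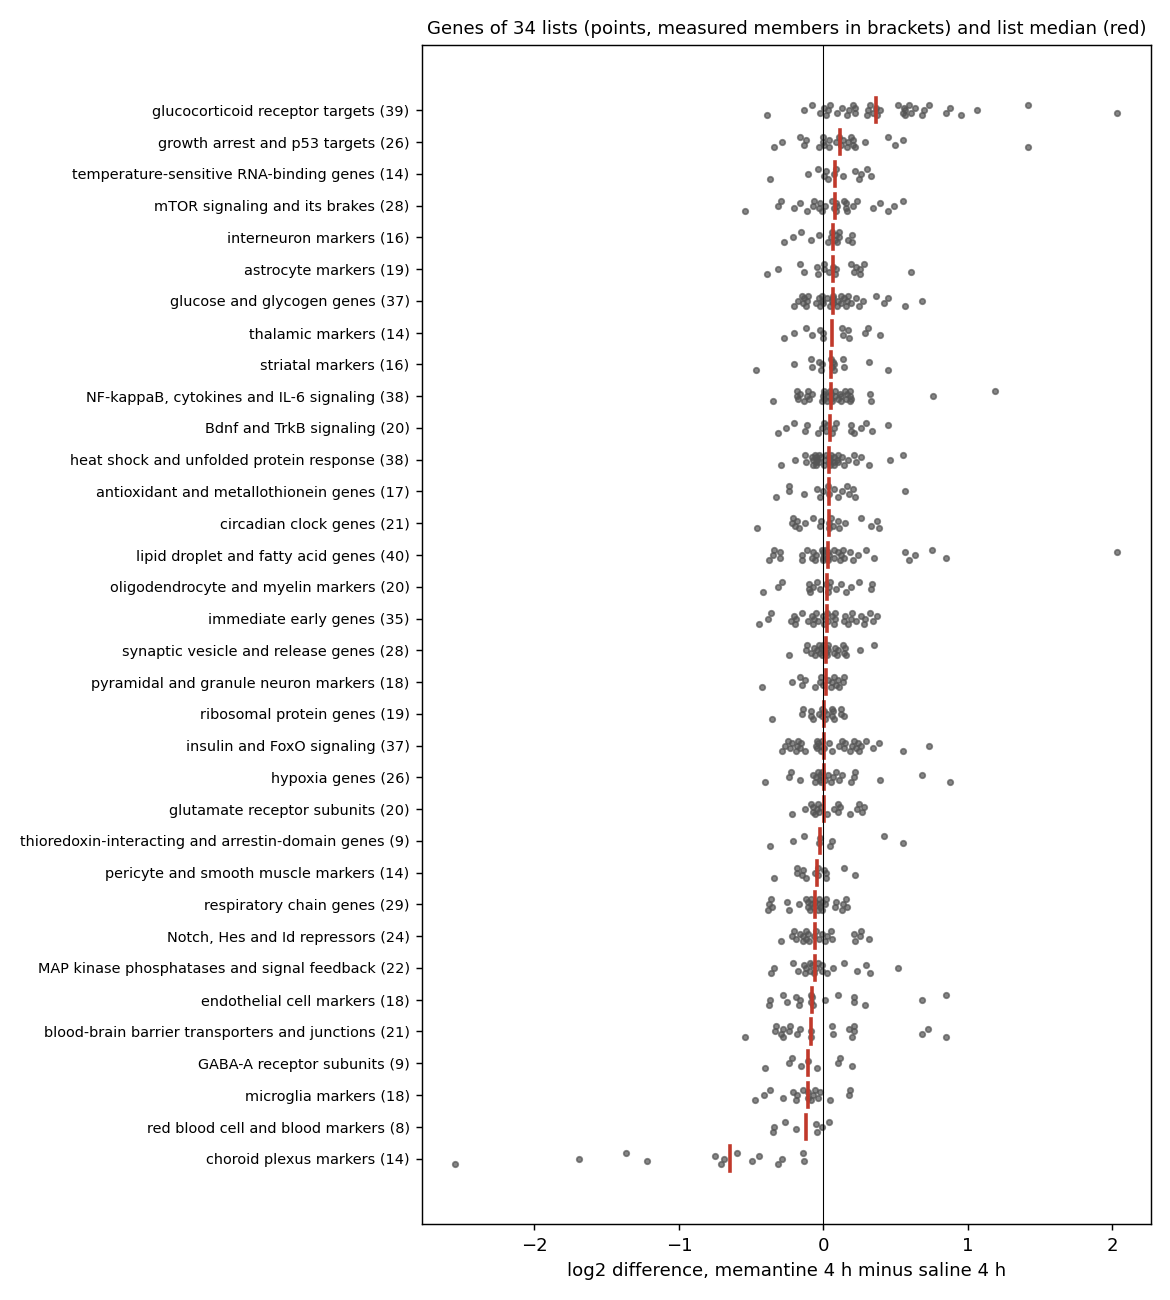
Log2 difference, memantine 4 h minus saline 4 h, of each measured gene (grey points, 1 probe a gene) in 34 lists ordered by their median (red bars), with the number of measured genes in brackets. The receptor targets lie highest with a median of 0.36, the choroid plexus markers lie lowest at -0.64 (-1.36 with slide as a fixed block and 0.15 with their own mean as a covariate), and the other medians lie near 0.

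Genes of lipid and glucose handling overlapped in part with those targets. Of 40 measured genes of lipid droplets and fatty acids, 2 passed after adjustment (Plin4 and Mfsd2a), 7 were higher and none was lower at p under 0.05, and the median was 0.03. Of all genes 0.0262% passed after adjustment, and 1.25% were higher and 1.5% lower at p under 0.05. Of 37 genes of glucose and glycogen, none passed after adjustment with limma, 6 were higher and none was lower at p under 0.05, with a median of 0.07. Besides Slc2a1 these included Pdk4 (0.56, SE 0.22), the kinase that turns off pyruvate dehydrogenase, and Ppp1r3g (0.44, SE 0.15), which targets protein phosphatase 1 to glycogen. Slc2a3, the glucose transporter of neurons, differed by 0.25 (SE 0.12).

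Genes of growth arrest and of the brakes on mTOR, the kinase complex that couples nutrients to protein synthesis, held a few further values. Of 26 growth arrest genes only Cdkn1a passed, 4 were higher and none was lower at p under 0.05 (1.25% and 1.5% of all genes), and the median was 0.11. Of 28 genes of mTOR signaling and its brakes none passed, and 4 were higher and 1 was lower at p under 0.05 in limma. The median was 0.08, with 17 differences positive and 11 negative. Sesn2 and Sesn1, sestrins that hold mTOR back, gave 0.55 (SE 0.21) and 0.45 (SE 0.19), with overlapping arrays for Sesn1. Castor1, an arginine sensor upstream of mTOR, gave 0.49 (SE 0.18). Ddit4l (-0.31), Deptor (-0.20) and Sesn3 (-0.16) of the same list were below 0. The 2 dimmer Sesn2 probes gave -0.22 and 0.37. Slc3a2, the heavy chain of large amino acid transporters, read 7.89, 7.60 and 7.75 with memantine and 8.28, 8.39 and 8.21 with saline, a difference of -0.55 (SE 0.22).

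Immediate early genes were close to the saline level. Of 35 measured, none passed after adjustment with limma, 1 was higher and 2 were lower at p under 0.05 (1.25% and 1.5% of all genes), and the median was 0.03. Per1, a clock gene that glucocorticoids also induce, was the 1 higher, at 11.04, 11.13 and 10.97 with memantine and 10.55, 10.68 and 10.80 with saline. Npas4, a transcription factor induced by neuronal calcium influx, read 8.44, 7.66 and 7.69 with memantine, against 8.55, 8.42 and 8.14 with saline (-0.44, SE 0.22), with overlap. Ptgs2, the other lower gene, differed by -0.38 (SE 0.19), with every memantine array below every saline array. Its probe lay at the 40.1th percentile of signal. Fos, Arc and Egr1 differed by 0.23 (SE 0.25), 0.19 (SE 0.22) and 0.08 (SE 0.17).

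None of the 20 measured glutamate receptor subunits, 9 GABA-A receptor subunits and 28 synaptic vesicle genes had p under 0.05 in limma, and their medians were 0.00, -0.10 and 0.02. The NMDA receptor subunits Grin2a and Grin2b differed by 0.23 (SE 0.23) and -0.04 (SE 0.15). Ntrk2, which encodes the BDNF receptor TrkB, gave 0.45 (SE 0.15) on its brightest probe and 0.07, -0.27 and 0.07 on its 3 others.

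Markers of cell types gave no adjusted call other than Mfsd2a, which is also an endothelial marker. Of 18 endothelial markers 2 were higher at p under 0.05 (Mfsd2a and Slc2a1) and 2 were lower, where 1.25% of all genes were higher and 1.5% lower. The 2 lower ones were the sialomucin Emcn at -0.37 (SE 0.14) and the angiopoietin receptor Tek at -0.37 (SE 0.17), both with every memantine array below every saline array. In all, 11 of the 18 were negative and the median was -0.08. Of 18 microglia markers none was higher and 3 were lower at the same level, against those same shares of all genes (P2ry13 -0.41, P2ry12 -0.47, Tyrobp -0.37), and the median was -0.11. P2ry13, a purinergic receptor of resting microglia, read 9.30, 9.18 and 8.85 with memantine and 9.57, 9.45 and 9.53 with saline. Itgad, also in this list, was counted by its brightest probe (-0.07), whereas its raised probe, described above with the others, gave 1.06. The summed level of the list on the linear scale spanned 11645 to 12907 with memantine and 12352 to 13308 with saline, so the ranges overlapped. Of 19 astrocyte markers 2 were higher (Gjb6 0.61 and Aldh1l1 0.28) and none lower, with a median of 0.07, and among 18 pyramidal and granule neuron markers none had p under 0.05.

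Choroid plexus markers varied between the memantine arrays. Ttr, the thyroid hormone carrier made by that epithelium, read 11.57, 11.73 and 15.43 with memantine, against 15.86, 15.05 and 15.46 with saline. Memantine replicate 3 thus read like the saline arrays and memantine replicates 1 and 2 far below them. All 14 measured markers averaged lower with memantine (median -0.64), and for all 14 the arrays overlapped. This median was -1.36 with slide as a fixed block and 0.15 with the mean of the markers as a covariate, which removes their own shift by construction. Their summed level spanned 11085 to 57649 with memantine and 44000 to 76835 with saline. The 6 called probes passed again when the mean of these markers entered the fit as a covariate, an alternative added after the data were seen.

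**Figure D4:**
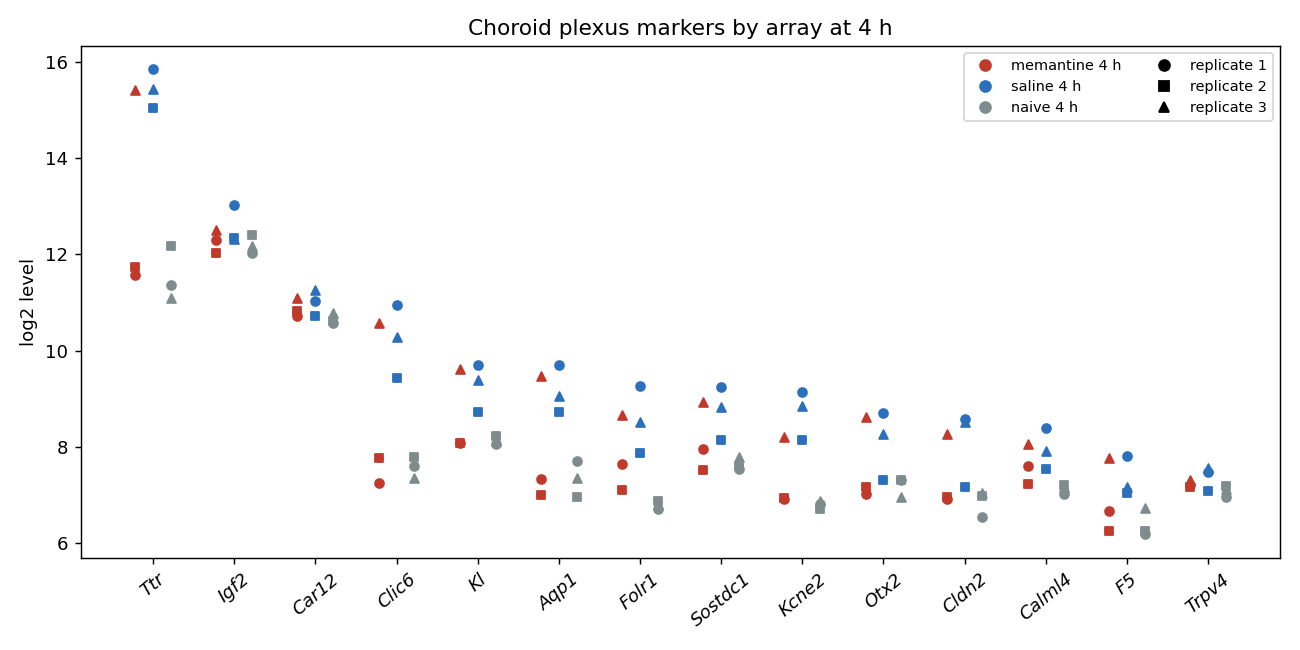
Log2 level of 14 choroid plexus markers on each array of the memantine, saline and naive groups at 4 h, with symbols for replicate number. The markers were high on memantine replicate 3 (Ttr 15.43) and on the saline arrays, and low on memantine replicates 1 and 2 (Ttr 11.57 and 11.73) and on the naive arrays.

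Naive mice killed at the same time gave a second control. The memantine arrays are the same as in the main comparison, so calls that recur are not independent evidence. Memantine against naive raised 9 probes (0.0199%) and lowered none (0%), with 0.903% higher and 0.855% lower at p under 0.05, and these were the 6 above with Gjb6 (0.65, adjusted p = 0.0264), Ccl4 (1.29, adjusted p = 0.0264) and Slc27a3 (0.94, adjusted p = 0.00538). Plin4 read 9.11, 9.43 and 10.04 with memantine and 7.22, 7.25 and 7.37 in naive mice, a difference of 2.25 (SE 0.22, adjusted p = 3.38e-09). Saline against naive called 0 probes with limma, with 1298 probes at p under 0.05 (1.55% higher and 1.31% lower).

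The same contrasts at the other times place the 4 h values within the response. Plin4 differed from saline by 0.22 at 1 h, 1.29 at 2 h, 2.04 at 4 h and 0.81 at 8 h. Its change at 4 h exceeded that at 1 h by 1.82 (SE 0.31, adjusted p = 0.0149), the only probe for which that difference passed (0.00221% of probes, with 1.02% higher and 1.28% lower at p under 0.05). No probe passed for this difference without memantine replicate 3, saline replicate 2 or saline replicate 3, nor with slide as a fixed block, a normexp offset of 16 or only the 24 memantine and saline arrays. Cdkn1a differed by 0.36, 1.09, 1.42 and 0.39 at the 4 times, Sult1a1 by 0.23, 0.70, 1.07 and 0.67, and Mfsd2a by 0.22, 0.60, 0.85 and 0.47. Tsc22d3 on its brightest probe differed by 0.39, 0.55, 0.95 and -0.11. All of these genes were called at 4 h, which favors a high value at that time.

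No probe passed an adjusted p of 0.05 in limma for the change at 4 h against that at 2 h or at 8 h, with 2370 probes (2.5% higher, 2.73% lower) and 2186 probes (2.39% higher, 2.44% lower) at an unadjusted p under 0.05. The largest values among the called genes were 1.56 for the second Tsc22d3 probe and 1.23 for Plin4, both for 4 h minus 8 h. The brightest Tsc22d3 probe stood at 12.39 ± 0.10 at 4 h and 11.82 ± 0.17 at 8 h with memantine (SD, n = 3 arrays each). With saline it stood at 11.44 ± 0.12 at 4 h and 11.92 ± 0.07 at 8 h (SD, n = 3 each).

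Among genes past the adjusted threshold at 2 h, some had smaller differences at 4 h. Dusp1, which dephosphorylates MAP kinases, differed by 0.98, 0.94, -0.08 and 0.21 at 1, 2, 4 and 8 h, Gadd45g, a stress-inducible growth arrest gene, by 0.52, 0.95, 0.04 and 0.01, and Nfkbia, the inhibitor of NF-kappaB, by 0.57, 1.03, 0.32 and -0.11. Ddit4, a brake on mTOR, differed by 0.74, 1.31, 0.39 and 0.14. Etnppl and Gjb6 had their highest values at 4 h, with 0.01, -0.24, 1.02 and 0.18 for the brighter Etnppl probe and 0.14, 0.05, 0.61 and 0.21 for Gjb6. Dusp1, Gadd45g, Nfkbia and Ddit4 were chosen at 2 h, and Etnppl and Gjb6 by their p at 4 h. The choice thus favors a high value at the time used. The difference between 4 h and another time did not pass for any gene of this paragraph.

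**Figure D5:**
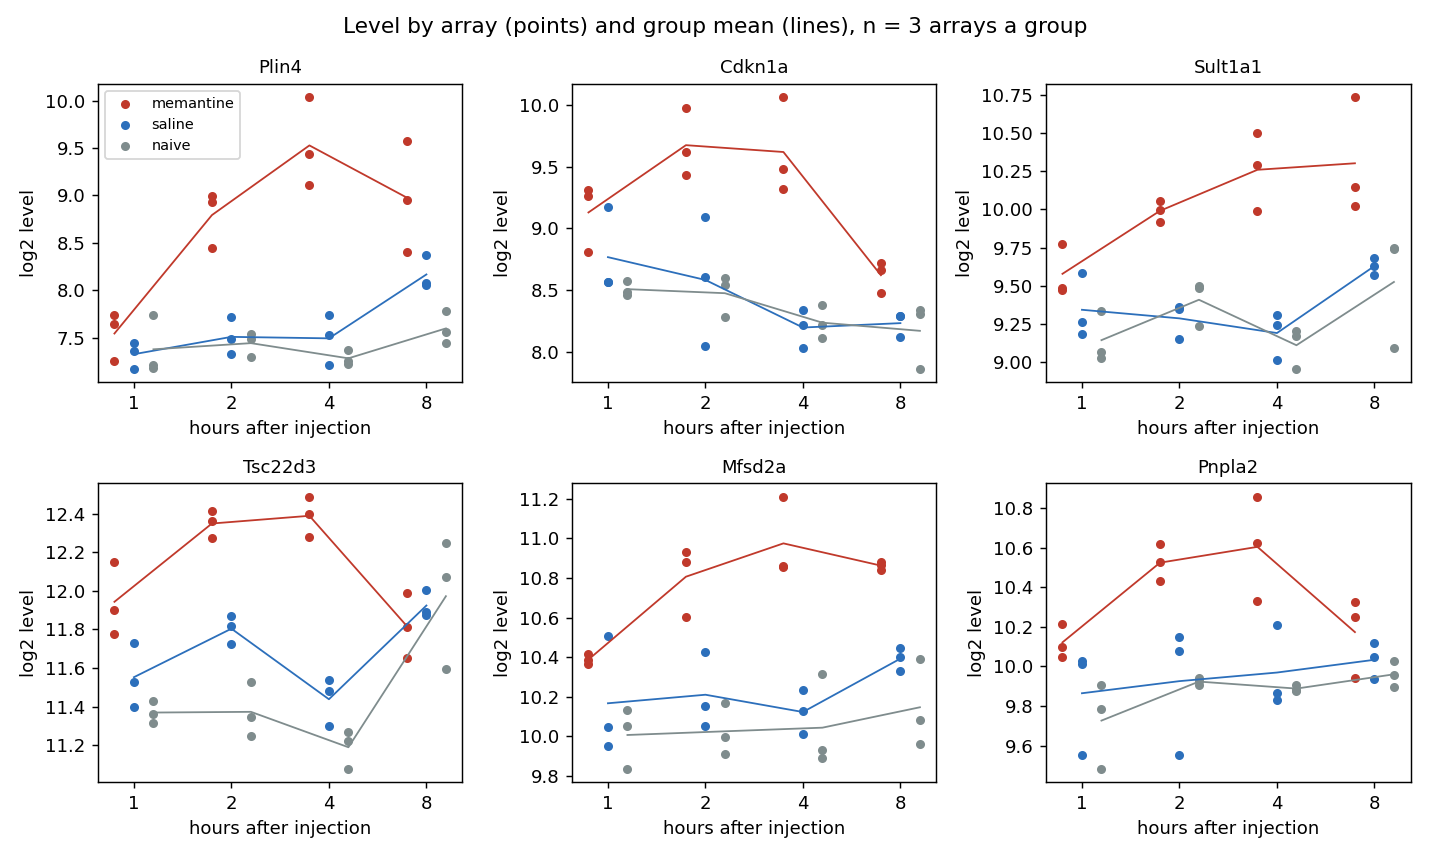
Log2 level by array (points) and group mean (lines) at 1, 2, 4 and 8 h for the 5 called genes and Pnpla2 with memantine, saline and no injection (n = 3 arrays a group). At 4 h the memantine points lie above all saline and naive points in every panel, and at 8 h those of Tsc22d3 overlap the saline points. The genes were chosen by their difference from saline at 4 h, so that separation is no further evidence.

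Ketamine and PCP at 4 h were set against the same 3 saline arrays, so the 3 drugs share their control, and the doses differ. PCP replicate 2 was an array of high background. Plin4 differed from saline by 2.04 with memantine, 1.16 with ketamine (SE 0.22, adjusted p = 0.117) and 1.31 with PCP (SE 0.22, adjusted p = 0.0106). Cdkn1a gave 1.42, 0.33 and 0.44 in the same order of drugs, Sult1a1 1.07, 0.46 and 0.66, Tsc22d3 0.95, 0.38 and 0.55, and Mfsd2a 0.85, 0.37 and 0.38. Etnppl, on its brighter probe, gave 1.02, 0.57 and 0.77, and Ccl4 1.19, -0.09 and 0.55. All of these genes were chosen by their memantine difference at 4 h, which favors memantine in this comparison. Of the 39 receptor targets, 20 were higher at p under 0.05 with memantine, 6 with ketamine and 8 with PCP, where 1.25%, 0.808% and 1.65% of all genes were higher. Of these 39, 16 are on the study's memantine list for the hippocampus, so the list favors memantine in such a count. Whether the drugs differ from each other was not tested.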

How the data were processed

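RNA pooled from 2 mice was hybridized to Illumina MouseWG-6 v2 arrays, and the authors deposited probe intensities from BeadStudio 3.0 that were not normalized. They also deposited log2 values that the authors had background-subtracted and quantile normalized with beadarray 2.14.1 over more arrays than these. The intensities, without control probes or detection values, were corrected here with normexp (offset 50), quantile normalized over 60 arrays and put on the log2 scale. A model of the 20 group means over all 60 arrays was fitted in limma 3.58.1 (R 4.3.3), with Benjamini-Hochberg adjustment over all 45281 probes. The number of arrays limits the precision. The 3 arrays of a group are separate pools. The script was tested on simulated data.

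A gene was represented by its probe with the highest mean signal. Of the probes, 34885 had 1 symbol in the platform annotation, 18 several and 10378 none. Named were all genes past an adjusted p of 0.05, up to 15 raised and 15 lowered at p under 0.0005, up to 6 members of each list and any other member needed to describe it, and genes the study listed for memantine. The comparison, the 34 gene lists and this rule were chosen with earlier results of these data known. Alternatives covered background, normalization, arrays fitted, signal filter, slide, replicate block, variance model, each array left out and the naive control.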

Additional observations from a re-analysis of the deposited data

Results flagged for a closer look

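One result differed between times by a test of the difference itself. The memantine effect on Plin4 at 4 h minus that at 1 h was 1.82 (SE 0.31, adjusted p = 0.0149, limma). Its effect was higher at 4 h, where it read 9.11, 9.43 and 10.04 with memantine and 7.74, 7.53 and 7.21 with saline, whereas at 1 h it read 7.64, 7.74 and 7.25 with memantine and 7.44, 7.36 and 7.17 with saline. The call was lost without memantine replicate 3 and without saline replicates 2 or 3, and also with slide as a fixed block, with a normexp offset of 16 and with only the 24 memantine and saline arrays.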

How the results depend on the processing

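The number of arrays and the weak signal of many probes limit what could be called, and no slide held both groups, so slide and treatment cannot be told apart for these 6 arrays except through the other arrays of the series. Of 1537 values of 77 probes of named genes under 20 alternatives, 1478 kept their direction and their side of the threshold. Most of these probes did not pass in the main fit, so that share says little about the called ones. Of the 20 alternatives, Plin4 passed under 19, Cdkn1a under 18, Sult1a1 under 17 and Mfsd2a under 14. The brightest Tsc22d3 probe passed under 16 and its second probe under 18. The main count of raised probes, 6, ranged from 5 to 9 when 1 array was left out, and was 2 with the 6 arrays normalized and fitted on their own and 0 with the 6 arrays alone in the fit, which have fewer samples. In those fits the raised and lowered counts at the nominal thresholds, 27 and 5, were 13 and 2, and 11 and 2. With the 24 memantine and saline arrays they were 16 and 1. The lowered count at these thresholds was 3 with no background correction and 2 among the brighter 50% of probes. Leaving out 1 array gave 13 to 32 raised and 1 to 15 lowered probes at these thresholds.

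The 7 arrays of high background were left out and the other 53 normalized anew as an alternative added after the data were seen, and 17 probes were then lowered at the nominal thresholds and 22 passed an adjusted p of 0.05 for memantine against naive (main 9). The single probe for 4 h minus 1 h became 0 with a normexp offset of 16, with the 24 arrays, with slide as a fixed block and without some single arrays (range 0 to 1). The causes were not tested.

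Some genes that did not pass reversed direction. Tob2 (main 0.22) was -0.0867 and Mobp (0.04) -0.0255 with slide as a fixed block, and Cspg5 (-0.02) was 0.15 with slide as a fixed and 0.0305 as a random block. Gadd45g (0.04) was -0.0263 and Dusp1 (-0.08) 0.0003 without the 7 arrays. Against naive mice Ttr (-2.55) was 1.37, Ppp1r3e (0.37) -0.0398, Tob2 -0.0346 and Mobp -0.0446. With single arrays left out, the brightest Itgad probe (main -0.07) spanned -0.198 to 0.083. The raised Itgad probe (main 1.06) kept its sign under all 20 alternatives, between 0.59 and 1.47. Leaving out single arrays, Gadd45g spanned -0.0435 to 0.1122, Egr2 -0.0761 to 0.1946, Mobp -0.0396 to 0.179, Cspg5 -0.1521 to 0.068 and Dusp1 -0.1465 to 0.0004.

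Equal replicate numbers did not pair the arrays (correlations of their deviations 0.16, -0.29 and -0.05). With the replicate block 6 probes were raised, 0 lowered, and 26 and 5 passed the nominal thresholds. Deviations of arrays from different groups correlated more on the same slide (mean 0.19) than on different slides (mean -0.02). The main fit holds no slide term.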
